A study of Mus musculus with 2 samples.

Results

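The genes described here are the proteasome subunit genes of the mouse, taken as every protein-coding gene of the GENCODE M21 annotation (build mm10, the same as GRCm38) whose symbol is Psm, a letter from a to g, and a number with at most 1 further letter. The rule used names only and no measured value, and it found 49 of 21938 protein-coding genes, on 16 chromosomes, 9 of them on chromosome 11. H3K4me3, the trimethylated form of lysine 4 on histone H3 that marks active and poised gene starts, was mapped in them by chromatin immunoprecipitation and sequencing (ChIP-seq) of MEL cells. MEL is an immortalized mouse leukaemia line of erythroid type, which the labels set beside the human line K562. There were 2 libraries of a single group, with no treatment named in the labels, called biological replicates 1 and 2. Both are labelled with a single cell sample, so the spread between them may be technical.

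The proteasome is the protease that destroys proteins tagged with ubiquitin. Its core particle is a barrel of stacked rings, with alpha subunits outside as the gate and beta subunits inside, of which Psmb5, Psmb6 and Psmb7 carry the cutting sites. A regulatory cap of ATPases and non-ATPase subunits binds the ubiquitin chain, unfolds the protein and feeds it in. Interferon and immune cells exchange the cutting subunits for Psmb8, Psmb9 and Psmb10, while Psmb11 serves thymic cortical epithelium and Psma8 the testis. Red cell precursors depend on proteasomes while they clear proteins and organelles.

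A gene was called marked where the distance from a listed peak to a transcription start site (TSS) of the gene was at most 1000 bp, the starts of its noncoding transcripts included. The replicated list, which the authors derived from both replicate lists and the pooled list, held 37379 peaks on chromosomes 1 to 19, X and Y. The replicate 1 list held 51781 and the replicate 2 list 41501. None of the lists holds read counts, so sequencing depth is unknown and a missing peak may mean too few reads. The erythroid marker genes Gata1, Klf1, Tal1, Epor and Hbb-bt were marked in both replicate lists. They ranged from Gata1, in a domain of 7953 bp, to Hbb-bt, in a domain of 690 bp at percentile 3.6 of signal. Of 5 thymic epithelium markers only Prss16 was marked, at percentile 6.0 of signal, and of 7 spermatocyte and spermatid markers only Spo11, at percentile 0.4. None of 6 dendritic and B cell markers was marked in the replicated list.

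In MEL cells the mark was present at nearly every proteasome gene. Of the 49 genes, 46 were marked in the replicated list (93.9%), against 50.3% of all protein-coding genes. The same 46 genes were marked in the replicate 1 list, where the background was 50.4%, in the replicate 2 list (50.9%) and in the pooled list (50.6%). The 3 genes without a peak in any list were Psma8, Psmb11 and Psme2b. Each belongs to another tissue or is a gene copy: Psma8 is the testis form of an alpha subunit, Psmb11 the thymus form of a beta subunit, and Psme2b a copy of the activator gene Psme2. Among the 44 genes here called constitutive, 43 were marked, Psme2b being the exception. This group is all but the immune, thymus and testis subunits, and so includes Psme1 and Psme2. Among the immune, thymus and testis subunits, 3 of 5 were marked, the 3 being the immune subunits. For comparison, 82 of 85 cytosolic and 78 of 78 mitochondrial ribosomal protein genes were marked, so near-complete marking was not particular to proteasome genes.

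**Figure D1:**
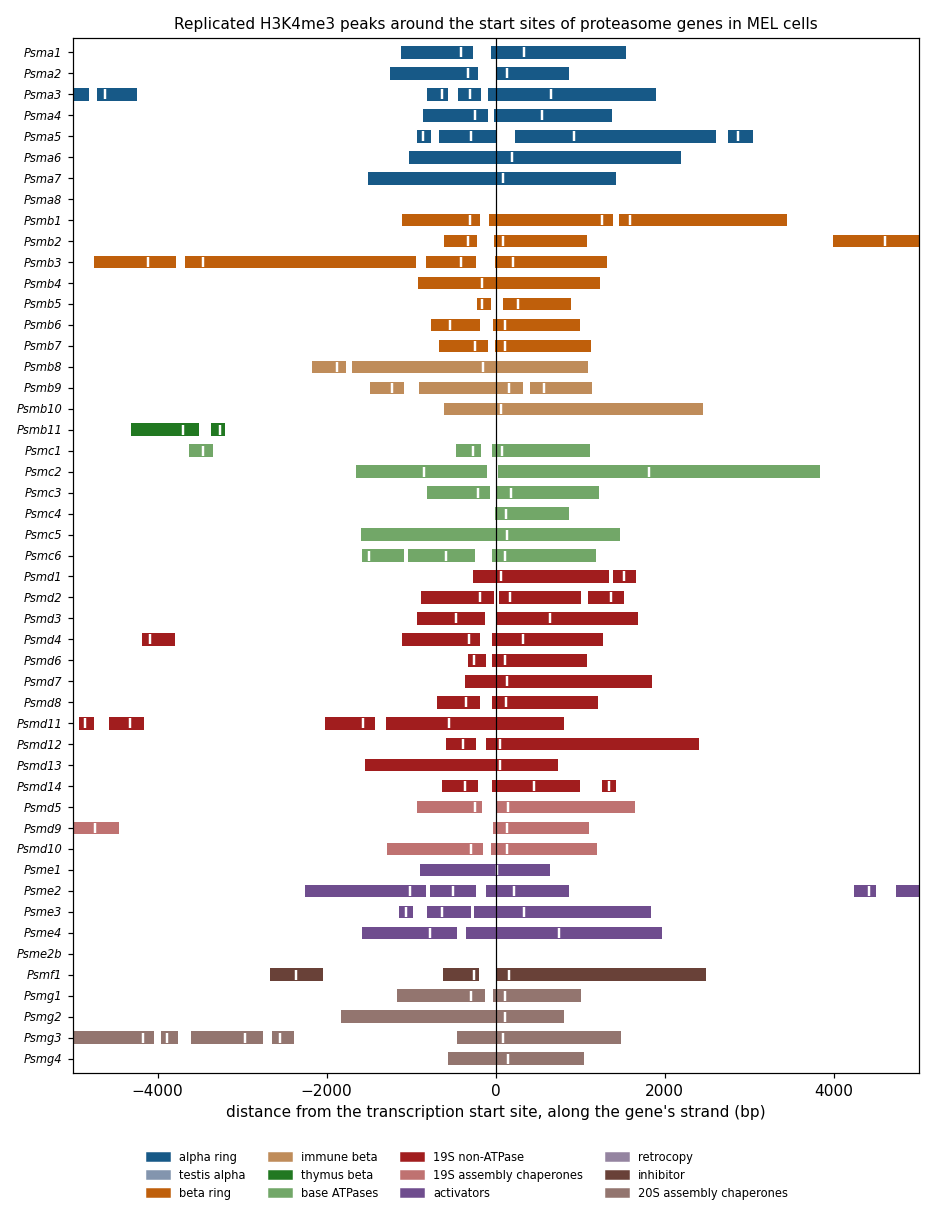
Replicated H3K4me3 peaks (bars) and their summits (white ticks) within 5000 bp of the start site of each of 49 proteasome genes, drawn along the gene's strand and coloured by role; the start site is the annotated TSS nearest the strongest peak's summit, or the 5'-most TSS where no peak was near. Peaks lie at the start of 46 genes, and the lines of Psma8 and Psme2b are empty while the bars on the Psmb11 line are those of its neighbour Psmb5.

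The cutting subunits differed from each other in the width of the marked region and in their promoter sequence. Promoters of 300 bases, from 250 before to 50 after the start, are shown for the catalytic subunits with an entry in the RefSeq promoter table (build GRCm38.p6, 41 of 49 genes matched), since these are the genes whose marking differed by tissue form. Sequences are written 5' to 3' on the gene's strand. Capitals mark matches, on either strand, to the letters searched: CCAAT for the CCAAT box, TATAAA for the TATA box, GGGCGG for the GC box, CCGGAAG for ETS factors, GCGCATGC for NRF1 (nuclear respiratory factor), TGACNNNGC for the antioxidant response element, GAAANNGAA for the interferon stimulated response element and AAGATGGCG for YY1.
Psmb5, chr14:54617946-54618245, minus strand: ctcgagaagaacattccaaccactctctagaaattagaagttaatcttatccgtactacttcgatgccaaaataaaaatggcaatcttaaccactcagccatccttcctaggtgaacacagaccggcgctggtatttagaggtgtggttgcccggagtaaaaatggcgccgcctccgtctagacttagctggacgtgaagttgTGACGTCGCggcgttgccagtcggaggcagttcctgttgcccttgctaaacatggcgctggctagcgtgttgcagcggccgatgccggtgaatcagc
Psmb8, chr17:34197945-34198244, plus strand: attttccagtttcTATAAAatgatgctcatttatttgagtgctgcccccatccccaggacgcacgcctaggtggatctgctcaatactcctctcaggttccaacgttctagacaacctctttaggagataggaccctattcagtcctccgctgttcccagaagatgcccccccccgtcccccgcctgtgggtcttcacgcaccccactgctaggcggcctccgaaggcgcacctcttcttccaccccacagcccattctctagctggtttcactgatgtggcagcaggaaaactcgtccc
Psmb11, chr14:54625060-54625359, plus strand: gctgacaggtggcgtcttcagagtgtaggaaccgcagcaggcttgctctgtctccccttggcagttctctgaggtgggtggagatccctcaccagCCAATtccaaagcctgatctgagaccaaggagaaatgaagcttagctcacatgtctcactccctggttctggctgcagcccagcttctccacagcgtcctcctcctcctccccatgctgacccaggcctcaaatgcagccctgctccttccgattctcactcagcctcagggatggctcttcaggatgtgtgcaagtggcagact
Psmb6, chr11:70525107-70525406, plus strand: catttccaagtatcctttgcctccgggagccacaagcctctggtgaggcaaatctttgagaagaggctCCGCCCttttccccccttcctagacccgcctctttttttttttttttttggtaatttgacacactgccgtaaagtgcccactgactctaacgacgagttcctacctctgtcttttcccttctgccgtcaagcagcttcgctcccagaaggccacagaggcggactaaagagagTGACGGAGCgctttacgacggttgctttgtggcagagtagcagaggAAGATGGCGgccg
Psmb9, chr17:34187281-34187580, minus strand: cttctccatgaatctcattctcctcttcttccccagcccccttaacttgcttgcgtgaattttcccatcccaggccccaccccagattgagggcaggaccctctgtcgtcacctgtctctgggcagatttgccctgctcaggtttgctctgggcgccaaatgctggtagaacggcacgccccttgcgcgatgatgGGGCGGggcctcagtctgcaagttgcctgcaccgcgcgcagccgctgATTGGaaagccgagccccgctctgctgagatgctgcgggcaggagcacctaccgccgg
Psmb10, chr8:105938343-105938642, minus strand: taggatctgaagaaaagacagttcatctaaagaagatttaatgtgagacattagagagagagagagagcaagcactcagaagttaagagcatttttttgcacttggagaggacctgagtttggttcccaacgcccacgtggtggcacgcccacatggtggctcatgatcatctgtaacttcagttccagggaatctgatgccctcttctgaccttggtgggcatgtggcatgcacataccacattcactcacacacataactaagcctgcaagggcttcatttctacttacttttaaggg

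Psmb5, Psmb8 and Psmb11 take the same place in the barrel, the chymotrypsin-like site, in ordinary, immune and thymic proteasomes. Replicated peaks covered 168 of the 300 bases at Psmb5, 300 at Psmb8 and 0 at Psmb11, whose window is at the downstream of its 2 annotated starts. In the Psmb5 window the uncovered stretch contained the start site itself, a gap of 142 bp between 2 peaks. The Psmb5 peaks were narrow, and their domain (neighbouring peaks joined where at most 1000 bp separated them) measured 1117 bp in the replicated list, 1121 bp in replicate 1 and 1116 bp in replicate 2. The Psmb8 domain was 3264 bp wide, with 3335 bp in replicate 1 and 3242 bp in replicate 2. Every value of Psmb8 lay above every value of Psmb5. Psmb11 had no peak in its body, and the nearest replicated peak, 3201 bp from its upstream start, was that of Psmb5.

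The strongest start-site peak of Psmb8 spanned chr17:34196666-34199465 and its summit lay in an exon. Signal was compared as the percentile of a gene's strongest start-site peak among the marked genes of the same list, since the sources used here give no definition of the deposited signal value. Psmb8 stood at percentile 74.7 in the replicated list, 70.7 in replicate 1 and 80.5 in replicate 2. Psmb5 stood at 60.0, 33.8 and 51.0. The immune form was thus higher than the ordinary form in all 3 lists, although replicate 1 split the Psmb8 region into 3 peaks where replicate 2 had 1 peak of 2826 bp.

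Psmb6 and its immune form Psmb9 supply the caspase-like site. The Psmb6 domain measured 1757 bp in the replicated list, 1607 bp in replicate 1 and 1792 bp in replicate 2. That of Psmb9 measured 2623, 2403 and 2640 bp. The immune form was again the wider in each list. Its strongest peak, at chr17:34187444-34188669, also lay at a start of the peptide transporter gene Tap1, so this width cannot be given to Psmb9 alone. The closest annotated starts of both genes lie 30 bp apart on opposite strands. With each peak given only to its nearest TSS, Psmb9 kept a peak of 729 bp at percentile 14.6, against 36.2 for the shared peak, which stood at 23.2 in replicate 1 and 37.3 in replicate 2. Psmb6 stood at percentile 54.7.

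Psmb7 and its immune form Psmb10 supply the trypsin-like site. The Psmb7 domain was 1795 bp in the replicated list, 1759 bp in replicate 1 and 1806 bp in replicate 2. The Psmb10 domain was 3069, 3326 and 3007 bp. In all 3 pairs, then, the immune gene had the wider domain, whether in the replicated list or in either replicate. For Psmb9, however, this domain was shared with Tap1. With each peak given only to its nearest TSS, the replicated peak was narrower at Psmb9 (729 bp) than at Psmb6 (1027 bp). Psmb8 and Psmb10 kept wider peaks than Psmb5 and Psmb7. With 2 libraries of a single condition no test was made of these differences. Signal gave no such order: Psmb10 was at percentile 56.8, with 54.3 in replicate 1 and 62.6 in replicate 2, and Psmb7 at 31.8, with 67.4 and 41.5.

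Psmb10 was marked by a single replicated peak at chr8:105935640-105938708, which covered all 300 promoter bases although only 3 CpG dinucleotides lie in them. The unmarked Psmb11 window holds 4, and the Psmb5 window holds 20. The Psmb10 start nearest the summit lay outside its window. Within 500 bases of that start lay 28 CpG dinucleotides, against 59 around the Psmb5 start nearest its summit. Psma7, the ordinary partner of the testis subunit Psma8, had a peak of 2928 bp at percentile 55.7, and its domain measured 3254 bp in replicate 1 and 3153 bp in the other. The nearest replicated peak to any start of Psma8 lay 22600 bp away.

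The activator genes Psme1 and Psme2, whose products form a ring that opens the core particle and which interferon also induces, were both marked. The Psme1 peak was 1537 bp wide, at chr14:55577679-55579215, with the summit 12 bp downstream of a start. Its domain was 1581 bp in replicate 1 and 1345 bp in replicate 2, and its signal percentile was 60.6 in the replicated list, 46.6 in replicate 1 and 64.8 in replicate 2. Psme2 had 3 start-site peaks in a domain of 3126 bp, with 3171 bp in replicate 1 and 3087 bp in replicate 2, and stood at percentile 79.2, with 62.5 and 73.3. The strongest Psme2 peak also lay within 1000 bp of a start of Rnf31, a subunit of a ubiquitin ligase. A separate replicated peak, at chr14:55591690-55593123, covered the 5'-most Rnf31 start. Psme2b, the copy of Psme2 on chromosome 11, was 46068 bp from the nearest replicated peak. Of the 32-base words within 500 bases of its start, 74.5% occurred more than once in the genome, the highest share among the 49 genes, so reads from it may not have been placed uniquely. The share was 12.5% at Psmb11 and 1.65% at Psma8.

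Proteasome genes lay close together at 3 places. Psmb5 and the upstream start of Psmb11 lie 3411 bp apart on chromosome 14 with no protein-coding start between them, and only Psmb5 was marked. Psmb9 and Psmb8 start 9957 bp apart on chromosome 17 on either side of Tap1, and both were marked, as was Tap2 beyond them. Psme1 and Psme2 start 12990 bp apart on chromosome 14, with Emc9 between them, and peaks lay at the starts of all 3 in each list.

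**Figure D2:**
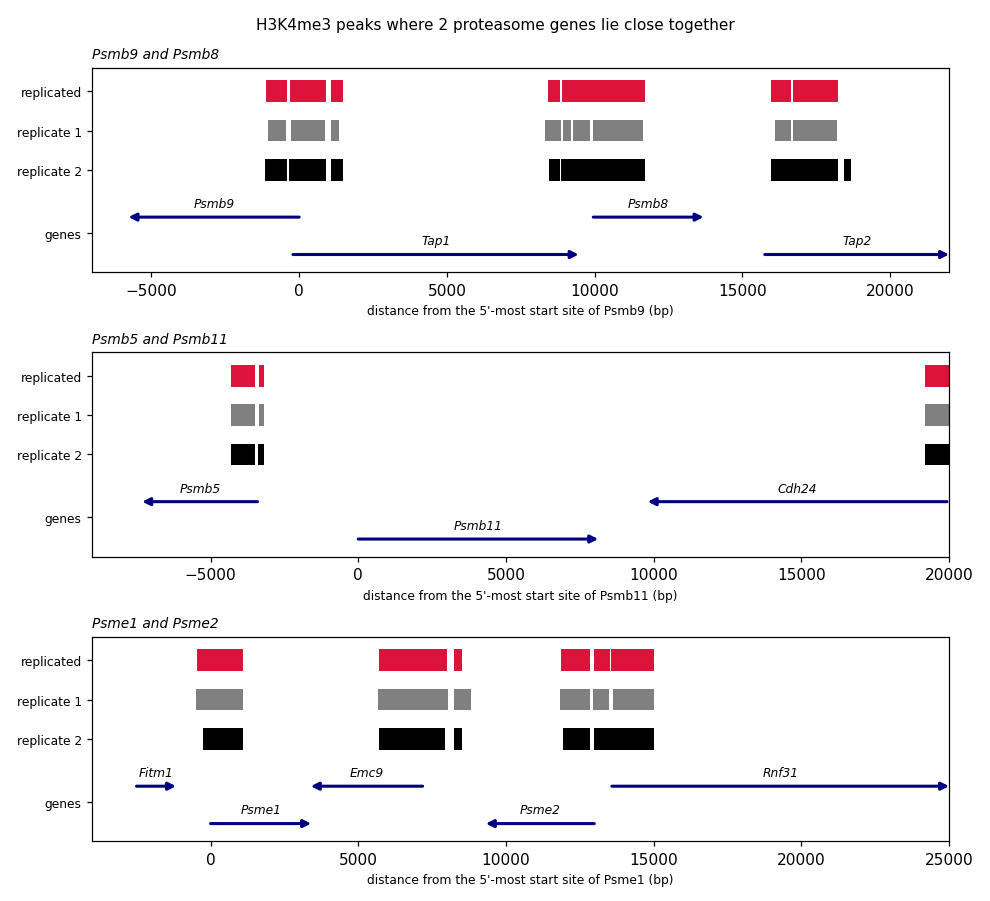
Peaks of the replicated list (red), replicate 1 (grey) and replicate 2 (black) around Psmb9 and Psmb8, Psmb5 and Psmb11, and Psme1 and Psme2, with genes as arrows in the direction of transcription and the horizontal axis in bp from a named start. Psmb11 is free of peaks in every list, while the peaks of Psmb5 appear in all of them.

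The 7 alpha ring genes, which build the gate of the barrel, were all marked, with domains of 2117 to 3967 bp and a median of 2714 bp. Psma3 had the highest signal of all 46 marked proteasome genes, at percentile 98.7 in the replicated list, 99.8 in replicate 1 and 83.3 in replicate 2. Psma6 was the third highest, with percentiles of 92.3, 81.5 and 90.2. Other alpha genes ranked high in 1 replicate only. Psma1 stood at percentile 98.2 in replicate 1 and 52.2 in replicate 2, and Psma2 at 98.4 and 25.9. Psma5, in the widest alpha domain, stood at 98.9 and 63.0. These genes were singled out after their values were seen. Psma4 was at percentile 55.8 in the replicated list, with a peak also at AY074887.

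The ordinary beta ring held both the widest and some of the narrowest domains. Psmb3, a structural subunit with no cutting site, had the widest domain of all proteasome genes, 6069 bp, with 6136 bp in replicate 1 and 6237 bp in replicate 2. This domain joined 4 peaks, and the strongest, at chr11:97699721-97702458, also lay at a start of Pcgf2, a Polycomb gene. Its summit lay at -3468 bp from the Psmb3 start, negative positions being upstream. With peaks given to the nearest TSS only, Psmb3 had a peak of 1325 bp at percentile 35.7, against 82.3 for the peak toward Pcgf2. That peak stood at percentile 22.3 in replicate 1, with the summit at -1226 bp, and at 79.3 in replicate 2. Psmb1, another structural subunit, had the third widest domain, 4554 bp. Its strongest peak also lay at Tbp, the gene of the TATA-binding protein. The closest annotated starts of Psmb1 and Tbp lie 137 bp apart on opposite strands. Psmb2 had the second lowest signal of all, at percentile 11.7, with 9.7 in replicate 1 and 12.8 in replicate 2. The structural subunit Psmb4 had a domain of 2160 bp and stood at percentile 15.7 in the replicated list, though at 59.5 and 64.9 in the replicate lists.

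The 6 base ATPase genes, whose products unfold the substrate, were all marked, and their domains ran from 878 to 5482 bp. Psmc4 had the narrowest domain of all proteasome genes, 878 bp in the replicated list, 1405 bp in replicate 1 and 887 bp in replicate 2, and it began 10 bp upstream of the start. Psmc2 had the second widest, 5482 bp, with 5428 bp in replicate 1 and 6180 bp in replicate 2. A start of Dnajc2, a chaperone gene, lies 32 bp from that of Psmc2 on the opposite strand, and the 140 bp between their peaks held the Psmc2 start. The summit of Psmc2 was 1810 bp downstream of the gene's nearest GENCODE start in the replicated list and 1602 bp in replicate 2. RefSeq has a further Psmc2 promoter, chr5:21786497-21786796, inside the downstream peak and nearer the replicated summit. In replicate 1 the Psmc2 summit was at -847 bp, on the peak toward Dnajc2. Replicate 1 split the downstream region, and a separate peak with its summit 2108 bp downstream had the higher signal value, 20.9 against 9.30, but lay beyond the 1000 bp window, so the change of side rested on the split. Psmc5 shared its peak with Ftsj3. Psmc1, Psmc3 and Psmc6 had domains of 1589, 2038 and 2766 bp and stood between percentiles 40.7 and 53.1.

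All 11 non-ATPase genes of the cap were marked, with domains of 1413 to 2994 bp, the narrowest range of any class with more than 4 members. Psmd8, a lid subunit, stood at percentile 88.6, Psmd2, a scaffold that binds shuttle proteins, at 81.5 and Psmd6, a lid subunit, at 81.3. At the other end Psmd1, a base scaffold, had the third lowest signal of all, percentile 12.2, with 5.7 in replicate 1 and 19.5 in replicate 2. Psmd12, a lid subunit, was at 16.9, yet at 83.8 in replicate 1 and 31.9 in replicate 2. The ubiquitin receptor gene Psmd4 had a domain of 2383 bp at percentile 33.7, with 65.9 in replicate 1 and 23.4 in replicate 2. Psmd14, the deubiquitinase of the lid, had 2069 bp at 63.6. Its partner Psmd7 had 2210 bp at 30.2, with 69.7 and 41.5 in the replicates. For these and other cap genes the rank by signal thus differed widely between the lists. Psmd3, a lid subunit, stood at 72.0, with 86.6 in replicate 1 but 18.7 in replicate 2. Psmd11, also of the lid, stood at 55.1, with 68.2 and 90.0, and Psmd13, whose peak also lay at the sirtuin gene Sirt3, at 73.3.

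The genes of the assembly chaperones, which help build the cap and the barrel and leave the finished particle, were all marked. Among those of the cap, Psmd9 had the second highest signal of all proteasome genes, percentile 97.0 in the replicated list, 80.6 in replicate 1 and 97.1 in replicate 2, over a domain of only 1130 bp. Psmd5 had the lowest, percentile 11.4, with 15.6 in replicate 2 but 70.4 in replicate 1. Psmd10 stood at 41.2, with 66.3 and 46.8 in the replicates, and shared its peak with the autophagy gene Atg4a. The 4 barrel chaperones Psmg1 to Psmg4 had domains of 1600 to 2641 bp and percentiles of 18.6 to 59.9, with 25.9 to 94.5 in replicate 1 and 34.1 to 39.6 in replicate 2. Psmg2 shared its peak with Cep76 and Psmg3 with Gm26938.

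The remaining activators and the inhibitor had domains of 2990 to 3551 bp. Psme3, a nuclear activator, had 2990 bp, with 3154 bp in replicate 1 and 2646 bp in replicate 2. Its signal percentile was 79.7 in the replicated list and 85.5 in replicate 2, but 9.5 in replicate 1, the largest difference between the replicate lists. Psme4, a large cap that acts without ATP, had 3551 bp at percentile 38.2, with 81.4 in replicate 1 and 52.9 in replicate 2. Psmf1, an inhibitor of the core particle, had 3106 bp at percentile 32.3, with 55.4 and 42.0. Both stood higher in each replicate list than in the replicated list.

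Across the 46 marked genes the domain had a median width of 2444 bp, against 2258 bp for all marked protein-coding genes. Replicate 1 gave a median of 2556.5 bp and replicate 2 of 2473.5 bp for the same 46 genes. The quartiles of the 46 widths were 1937.75 and 2993 bp, which lay between those of all marked genes, 1668 and 3035 bp. In the widest 5% of domains, those of at least 4864 bp, were 2 of the 46 (4.35%), Psmb3 and Psmc2, against 5.01% of all marked genes. Cytosolic ribosomal protein genes had a median of 3259.5 bp and mitochondrial ones of 2157.5 bp. The strongest start-site peak had a median width of 1599.5 bp at proteasome genes and 1369 bp at all marked genes.

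**Figure D3:**
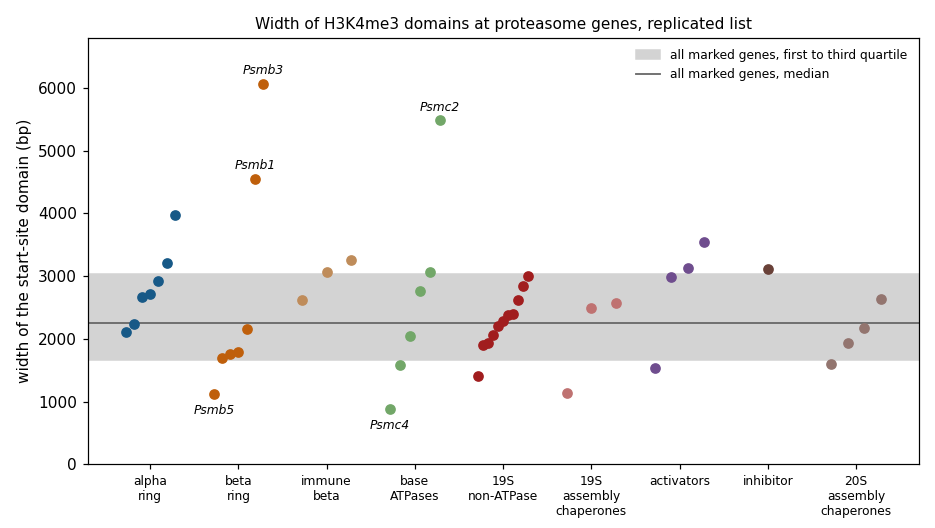
Width of the start-site domain in bp for each of the 46 marked proteasome genes by role in the replicated list, with the median (line) and the first to the third quartile (grey band) of all marked genes. Psmb3, Psmc2 and Psmb1 lie far above the band and Psmc4, Psmb5 and Psmd9 below it, while all 3 immune beta genes lie above the median line.

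The signal percentiles of the 46 genes spread over nearly the whole range, from 11.4 to 98.7, with a median of 53.9. In 4 equal bands of percentile, from the lowest to the highest, lay 7, 14, 14 and 11 of them. All the strongest peaks were far above the weak end of the list, with −log10 q from 52.9 at Psmb5 to 134.9 at Psmd4. Between the replicate lists the percentile of a gene differed by a median of 17.2 points and by up to 76.0, at Psme3. The members' median was 67.2 in replicate 1 and 51.5 in replicate 2. Domain width differed between the replicates by a median of 165 bp and at most 765 bp, at Psma2, and was the lower in replicate 2 at 32 genes.

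**Figure D4:**
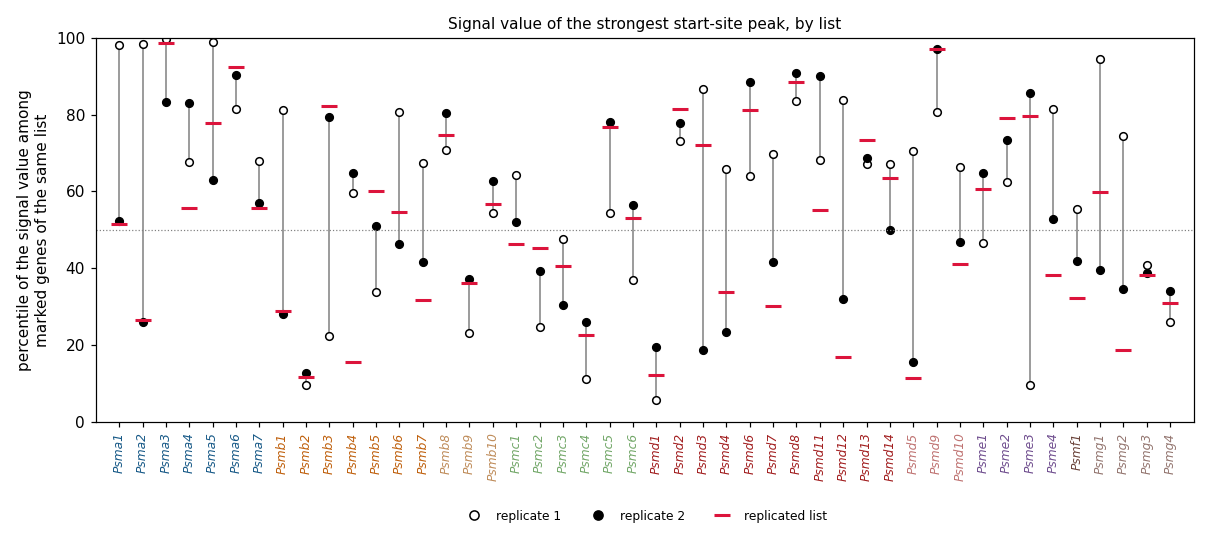
Percentile of the signal value of the strongest start-site peak among all marked genes of the same list, for 46 proteasome genes in replicate 1 (open circles), replicate 2 (filled circles) and the replicated list (red bars). Psma3, Psma6, Psmd8 and Psmd9 are at percentile 80 or above in all 3 lists and Psmb2 and Psmd1 below 20, whereas Psme3 and Psma2 change by over 70 points between the replicates.

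The summit of the strongest peak lay downstream of the gene's own nearest TSS at 36 of 46 genes (78.3%), against 68.6% of all marked genes. Its median offset was 111 bp downstream, against 104 bp for all marked genes. The side was less stable than the presence of a peak. In replicate 1 the summit lay downstream at 31 genes (67.4%), close to the 65.8% of all marked genes in that list. In replicate 2 it lay downstream at 35 (76.1%), against 70.1%. Compared with the replicated list, the side changed at 15 genes in replicate 1 and at 5 in replicate 2. The summits of the replicate lists lay within 200 bp of each other at 15 of 46 genes. This count and those of side changes were made for proteasome genes only. A summit over 500 bp from every GENCODE start of the gene itself was found at 7 of 46 genes, against 2098 of all 11037 marked genes. Besides Psmb3 and Psmc2 these were Psma5 (924 bp downstream), Psme4 (744 bp), Psma3 (656 bp) and Psmd3 (645 bp), and Psmd11 (-548 bp).

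The marked region was not centred on the start. From the start to the domain's edge, the median was 924.5 bp upstream and 1254 bp downstream, against 934 and 1205 bp for all marked genes. A start of another protein-coding gene on the opposite strand, within 2000 bp of any start, was found for 14 of the 49 genes, against 13.7% of all genes. Marked genes had such neighbours more often: 14 of the 46 marked proteasome genes, against 2596 of all 11037 marked genes. In 32 marked genes without such a neighbour the downstream arm was the longer at 27 (84.4%), against 72.6% of all such genes. In the 14 with a neighbour it was the longer at 5 (35.7%), against 41.7% of all such genes. The upstream arm had a median of 1386.5 bp in the 14 and 786.5 bp in the 32, close to the 1375.5 and 824 bp of all marked genes with and without a neighbour. At Psmd1 and Psmd5 the start near the neighbour was a distant one, away from the marked start. The Psme1 start near its neighbour Emc9 was likewise not the one nearest the summit but lay further downstream.

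The strongest peak also lay within 1000 bp of a start of another protein-coding gene for 13 of 46 genes (28.3%), against 24.1% of all marked genes. Besides the partners already named these were Mrpl32, a mitochondrial ribosomal protein gene, for Psma2, and Ss18l1 for Psma7. A shared peak cannot be assigned to either gene. At mitochondrial ribosomal protein genes the count was 34 of 78.

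At 38 of the 46 genes the start nearest the summit lay inside a peak, and at 8 (17.4%) it lay in a gap between 2 peaks, against 15.2% of all marked genes. The 8 were Psma2, Psmb5, Psmc2, Psmc3, Psmd2, Psmd3, Psmd5 and Psmf1. Their gaps measured 67 to 217 bp with a median of 142.5 bp, against a median of 181.5 bp for all genes. The domain held 1 peak at 13 genes, 2 peaks at 23 and 3 or more at 10. Of 245 annotated starts of the 46 genes, 187 had a replicated peak within 1000 bp (76.3%), against 65.7% of the starts of all marked genes. At 17 genes every annotated start had a peak, and 29 genes had at least 1 start without a peak. The most distant of these, at Psme4, lay 93148 bp from the start nearest the summit. At Psma6, Psmd5 and Psmd9 the 5'-most annotated start had no peak, and the marked start lay 14573, 4035 and 58845 bp further downstream.

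The promoters of proteasome genes were mostly rich in CpG dinucleotides, much like those of marked genes in general. Within 500 bases of the 5'-most start, 34 of the 49 promoters were of the high-CpG class (observed to expected ratio of at least 0.6 and at least 50% GC), against 44.4% of all genes. All 34 were marked, against 79.8% of all genes of that class. Among marked genes the class held 34 of 46 proteasome genes and 7773 of all 11037. Of 8 intermediate promoters 7 were marked, the exception being Psma8, against 53.0% of such genes. Of 7 low-CpG promoters (ratio under 0.4) 5 were marked, against 16.6%. Of these 5, Psma6, Psmd5, Psmd9 and Psmf1 were of the high-CpG class at the start nearest their summit. Marked genes with a low-CpG promoter at that start were Psmb10 (ratio 0.395), Psme1 (0.395) and Psme2 (0.383), all just under the limit, and the products of all 3 are known to be induced by interferon. Psmb8 was intermediate there (0.53) and Psmb9 high (0.658). The unmarked Psmb11 and Psme2b had ratios of 0.156 and 0.236.

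Of the 8 motifs searched, the ETS letters CCGGAAG differed most, in percentage points, from their share among all genes. A match lay in the 300-base window at the 5'-most start of 16 of 49 proteasome genes (32.7%), against 10.8% of all protein-coding genes. Of the marked genes with a high-CpG promoter, 14 of 34 proteasome genes held it (41.2%), against 22.0% of all such genes. The share was 36.7% against 11.7% in windows at the start nearest the summit, and 34.1% against 13.4% in the RefSeq windows, both of which were added after the data were seen. In the RefSeq windows the matches were at Psma6, 3 ATPase genes (Psmc1, Psmc2 and Psmc6), 6 cap genes (Psmd2, Psmd4, Psmd6, Psmd11, Psmd12 and Psmd13), the activators Psme3 and Psme4, and the chaperones Psmg1 and Psmg3. None was at a beta subunit gene, but Psmb1, Psmb2 and Psmb7 had no RefSeq window, and Psmb7 held the letters in the window at the start nearest the summit. A match is a description of letters and not of binding. Psmc2 has a further RefSeq window, chr5:21786497-21786796, which also held a match but lay wholly under a peak. Shown in the same notation is the promoter of Psma6, the gene with the highest signal among these, which has 3 ETS matches. Beside it is the Psmc2 window whose match lies in the gap around the start.
Psma6, chr12:55398575-55398874, plus strand: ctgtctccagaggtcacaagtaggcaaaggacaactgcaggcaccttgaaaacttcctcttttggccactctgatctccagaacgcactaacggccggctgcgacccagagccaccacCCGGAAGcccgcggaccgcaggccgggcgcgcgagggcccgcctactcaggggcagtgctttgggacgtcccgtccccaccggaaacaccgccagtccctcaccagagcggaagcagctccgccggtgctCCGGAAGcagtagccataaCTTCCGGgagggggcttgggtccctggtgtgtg
Psmc2, chr5:21785025-21785324, plus strand: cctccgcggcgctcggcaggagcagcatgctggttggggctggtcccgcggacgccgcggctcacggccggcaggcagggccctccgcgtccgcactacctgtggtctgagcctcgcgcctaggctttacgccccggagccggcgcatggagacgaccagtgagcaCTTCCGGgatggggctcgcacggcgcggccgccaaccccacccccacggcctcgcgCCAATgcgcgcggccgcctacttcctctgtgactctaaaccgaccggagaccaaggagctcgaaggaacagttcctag

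The interferon stimulated response element letters were found at 6 of 49 genes at the 5'-most start (12.2%, against 8.47% of all genes) and at 12 of 49 at the start nearest the summit (24.5%, against 8.26%). The 12 were Psmb8, Psmb10, Psme1 and Psme2, which interferon induces, and 8 other genes (Psma4, Psmb3, Psmb4, Psmd4, Psmd7, Psmd9, Psmf1 and Psmg4). The immune subunit Psmb9 had no match in any window. Of the 4 induced genes only Psme1 held the letters in its RefSeq window, so this match depends on which start is used. The antioxidant response element, the site class through which Nfe2l1 and Nfe2l2 act on proteasome genes, was matched at 6 of 49 genes (12.2%, against 12.5%), among them Psmb5 and Psmb6, whose matches begin 47 and 9 bases before the start in the sequences printed. In the window nearest the summit its share was 22.4%, against 12.8%. The NRF1 letters were at 4 genes (8.16%, against 3.71%) and the YY1 letters at 3 (6.12%, against 1.70%). The GC box was at 27 (55.1%, against 43.0%), the CCAAT box at 18 (36.7%, against 39.0%) and the TATA box at 4 (8.16%, against 12.6%). Against marked genes the GC box was not in excess: 26 of 46 marked proteasome genes held it, against 61.6% of all marked genes, and 58.8% against 72.3% in the high-CpG class. Of all marked genes 5.58% held the NRF1 letters and 3.11% the YY1 letters. GC box letters can overlap those of other motifs.

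Genes that work with the proteasome were marked as widely as its subunits. All 15 proteasome-associated genes found in the annotation were marked, with a median domain of 2843 bp and a median signal percentile of 68.5. They ranged from Uchl5, a deubiquitinase, at percentile 23.7 to the shuttle gene Rad23b at 95.2. All 5 regulators of the subunit genes were marked: the transcription factor genes Nfe2l1 (percentile 33.3) and Nfe2l2 (69.6), and Ddi2 (89.6), Ngly1 (54.0) and Vcp (18.6), whose products process Nfe2l1. The ubiquitin genes Ubb and Rps27a were marked too. Of the interferon and antigen presentation genes, Tap1, Tap2, Tapbp, B2m and Erap1 were marked, and Irf8, Nlrc5 and Ciita, regulators used mainly by immune cells, were not. Irf1, an interferon-induced regulator of the immune subunits, was marked at percentile 11.7.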

How the data were processed

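H3K4me3 was mapped by ChIP-seq in 2 libraries of MEL cells. Per the notes deposited with the samples, the authors called peaks on each replicate and on both together, each time against a control, and took the replicated list from the other 3. All are narrowPeak on mm10. How replication was decided, with which aligner and with which peak caller was not given in the sources used here. Each peak's signal value is a score that the authors deposited, with no definition given; the deposited −log10 q and the summit are theirs too. Depth is unknown, since the lists hold no counts. The deposited mm9 list was not used here.

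TSSs (93513) came from GENCODE M21 and promoters from the GRCm38.p6 sequence and RefSeq. A peak within 1000 bp marked a gene, overlaps counted from 1 bp, and a peak could count for several genes. The strongest start-site peak is that with the highest signal value. Repeated 32-base words were searched over 65 sequences of the assembly. The assignment was tested on simulated peaks, each a lone peak at an isolated gene with a single start. Genes with several starts and joined, split or shared peaks were not simulated. Python 3.11.15, numpy 2.4.6, pandas 2.3.3, numba 0.67.0, scipy 1.17.1 and matplotlib 3.10.9 were used.

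The members, gene lists and tests were chosen with earlier results of these data known. Genes are not replicates, so counts and medians are given beside those of all genes and no p-value. Genes named in full were the immune, thymus and testis subunits, Psme1, Psme2, Psme2b, the ordinary partners, unmarked genes, the 3 widest and 3 narrowest domains, the 3 highest and 3 lowest signals, summits over 500 bp away and shared peaks. Of the 16 listed proteasome-associated genes Paaf1 was not found under that symbol. Some genes of the other lists are not reported here.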

Additional observations from a re-analysis of the deposited data

How the results depend on the processing

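The 46 marked genes were the same in the pooled list, in each replicate list, with −log10 q of at least 5, with windows of 500 and 2500 bp and with peaks given to the nearest TSS only. Some of these settings could hardly lose a gene. The replicated list was taken from the other lists, the strongest peaks had −log10 q of 52.9 or more, and a 2500 bp window can only add genes. With the 5'-most TSS alone 43 were marked, Psma6, Psmd5 and Psmd9 being lost. The median domain width, 2444 bp, was 2317 bp with −log10 q of at least 5, 2535.5 bp with the 2500 bp window or with gaps of up to 2000 bp merged, and 2383 bp with the 5'-most TSS alone. Without replicate 1 or without replicate 2, values ranged from 2473.5 to 2556.5 bp for the median domain, 1350 to 1590 bp for the median peak width, 51.5 to 67.2 for the median signal percentile, and 31 to 35 genes for the downstream summit. Of the values of single genes and motifs, 24 moved by more than the spread between the replicates (for motif shares, their binomial interval) and 230 did not. Of the main results, each taken at each setting, 7 were scored as moved and 58 as unchanged. The 43 marked genes with the 5'-most TSS alone were scored as unchanged. The wider domain of each immune gene over its ordinary partner held in both replicate lists, with the Psmb9 domain shared with Tap1. With peaks given to the nearest TSS only, the Psmb9 peak was narrower than that of Psmb6. No paired analysis was possible because the series has 1 group. Unknown depth and the undefined signal value limit every ranking by signal, and widths depend on where the caller split peaks.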
